A study of Mus musculus with 7 samples.

Results

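The epithelium of the mouse lung was compared after and before birth, gene by gene, to find transcripts that stand on one side of birth in every library. A gene was kept when its value in each of the 3 postnatal libraries lay above, or in each lay below, its value in all 4 prenatal libraries. Of 21121 genes listed, 3198 met this rule (15.1%), 2161 with the postnatal libraries above (10.2%) and 1037 with them below (4.91%). The cells were living epithelial cells of C57BL/6 lungs, sorted for the epithelial surface protein Epcam and against blood and vessel surface proteins (CD31, CD45, CD146, Ter119). The 4 prenatal libraries come from embryonic days 13.5, 15.5 and 18.5 (E13.5, E15.5 and, with 2 libraries, E18.5). The 3 postnatal ones come from postnatal day 14 (P14) and, with 2 libraries, day 56 (P56). The labels name no genotype or treatment that separates the groups. Nor do they tell if both libraries of E18.5 or of P56 had their own animals, so p-values measure only the spread between these libraries. RNA was read by 3' SAGE sequencing, which counts 1 short tag near the 3' end of a transcript, and values are tag counts scaled by the authors with 1 factor per library, here called units. Single values follow the order E13.5, E15.5, E18.5 replicates 1 and 2 before birth, and P14, P56 replicates 1 and 2 after it.

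Before birth the lung is filled with fluid and its tubes branch and then form sacs. Air breathing begins at birth, and the epithelium of the air spaces then consists mainly of thin type 1 cells, which carry gas exchange, and type 2 cells, which make surfactant. Type 2 cells of the adult lung are also known to carry MHC class II molecules, which present peptides to helper T cells, although they are no immune cells.

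Depth was 2559927 to 3895740 reads per library, and 1 read was worth 0.236 to 0.385 units. Epcam (126 ± 70.4, SD, n = 4, before and 75.9 ± 28.96, n = 3, after birth), the E-cadherin gene Cdh1 (204 ± 82.4 and 208 ± 19.2) and the lung transcription factor gene Nkx2-1 (1302 ± 608 and 1165 ± 218) overlapped between the periods. Ptprc, which encodes CD45, had 0 reads in all 4 prenatal libraries, 4 at P14 and 0 and 1 at P56. Pecam1, which encodes CD31, had 0 reads in the 3 postnatal libraries, and Mcam, which encodes CD146, had 26 and 14 in the 2 youngest libraries and at most 4 in each later one. Of 9 immune cell markers listed, only 1 had enough reads to be tested, and their sum was 0.385 to 16.3 units before and 4.55 to 32.5 after birth. Most of the highest sum, at P14, was Csf1r, a macrophage receptor gene, with 81 reads there, 0 and 7 at P56 and at most 1 in each prenatal library.

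Among genes with enough reads to be tested, 10669 in all, the postnatal libraries lay above the prenatal ones for 1711 (16.0%) and below for 814 (7.63%), together 2525 (23.7%). On the log2(value + 1) scale, limma called 387 genes higher after birth (3.63%) and 137 lower (1.28%) at a Benjamini-Hochberg adjusted p under 0.05. All 524 (4.91%) were among the genes that did not overlap. The test treats the prenatal stages as replicates of one period, so a gene that moves steadily from E13.5 to E18.5 carries that movement as spread. In sorted bulk samples fewer cells of a type and less RNA per cell cannot be told apart. The edgeR quasi-likelihood test on recovered reads called 180 and 88, of which 178 and 88 were shared with limma. The DESeq2 Wald test called 687 and 568, so that 54.7% of its calls were higher after birth against 73.9% for limma. The calls depended on single libraries, the adult ones above all. Limma called 19 higher and 9 lower without P56 replicate 1, 11 and 7 without P56 replicate 2, 164 and 97 without P14, and 143 and 45 without E15.5.

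For most of the genes on one side of birth the gap between the periods was a small part of their range. The gap between the nearest libraries of the 2 periods was taken as a percent of the gene's whole log2 range over the 7 libraries. The median was 18.5% for the genes above and 16.3% for those below, and 105 of 1711 and 38 of 814 crossed at least 50% of their range between the periods. For 73.8% of the higher and 65.2% of the lower genes the nearest prenatal library was one of E18.5, and 356 and 118 moved in the order of age through all 5 stages. At the edge of the rule, Dcaf8 was kept by a gap of 0.00438 on the log2 scale (139.6 at E15.5 against 140.0 in P56 replicate 1), and Nucb1 missed it (432.4 at E15.5 against 432.1 in P56 replicate 2). On the lower side Pbrm1 was kept (426.1 in E18.5 replicate 2, 426.0 in P56 replicate 1) and Cabin1 missed (126.3 in E18.5 replicate 1, 126.6 in P56 replicate 2).

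**Figure D1:**
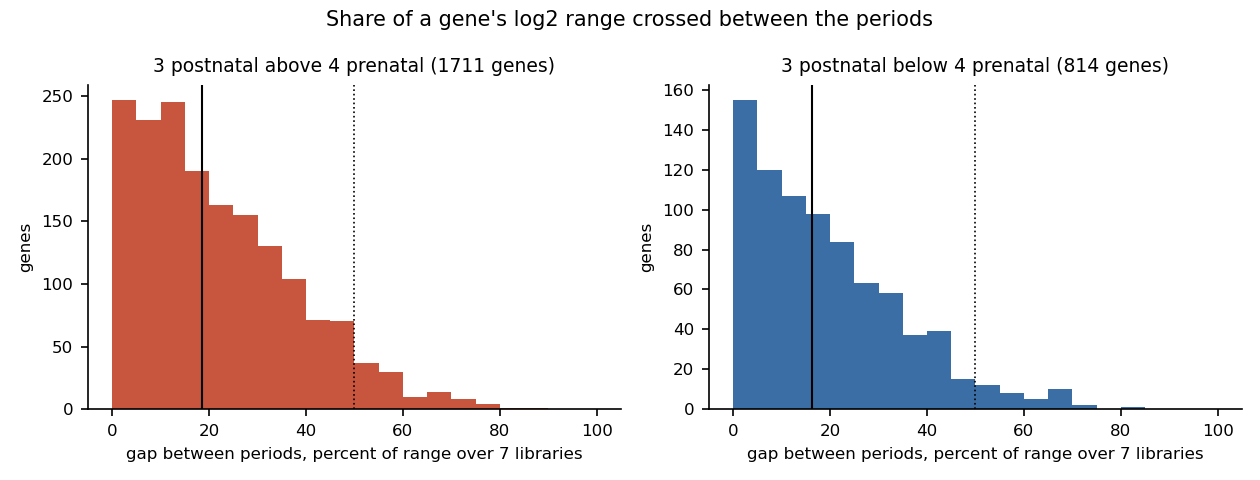
Number of genes (vertical axis) by the gap between the nearest prenatal and postnatal libraries, as a percent of the gene's log2(value + 1) range over 7 libraries (horizontal axis, bins of 5 points), for 1711 genes above (left) and 814 below (right) after birth. Solid lines mark the medians, 18.5% and 16.3%, and dotted lines 50%; most genes lie left of the dotted lines.

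To separate a step between the periods from a steady trend, a fit with the period and a linear term in stage order was made for the same 10669 genes. No library lies between E18.5 and P14, so a step cannot be placed at birth itself within that interval. Stage order counts the interval like any other between neighbouring stages. A step here is the period difference beside the fitted trend, which is carried past birth, so it can exceed any difference seen between libraries. The fit called a step upwards for 16 genes (0.150%) and downwards for 37 (0.347%), of which 12 and 12 also lay on that side of birth in every library. Among genes with such a step that also did not overlap between the periods and averaged 100 units or more in 1 period, the largest upward steps were in H2-Ab1 (7.08 on the log2 scale, adjusted p = 0.0068), H2-Aa (7.02, adjusted p = 0.0068), Cd74 (5.01, adjusted p = 0.0131), Lrrc8c (3.98, adjusted p = 0.0467), Gdnf (3.95, adjusted p = 0.0446) and Cd151 (2.85, adjusted p = 0.0244). The largest downward ones were in Dlk1 (-8.51, adjusted p = 0.0113, against a log2 difference of -7.24 from E18.5 alone), Cldn10 (-5.35, adjusted p = 0.0244), Psat1 (-5.07, adjusted p = 0.0244), Igf2bp3 (-4.23, adjusted p = 0.0282), Frat2 (-3.30, adjusted p = 0.0467) and Slc2a1 (-2.91, adjusted p = 0.0286). These calls depend on how age is scaled: with log2 days after conception in place of stage order limma called 0 genes in either direction (157 up and 151 down at an unadjusted p under 0.05; edgeR on stage order 5 and 25), and without any 1 of E13.5, E18.5 replicate 1 or E18.5 replicate 2 it called 0 as well (471 to 755 in a direction at an unadjusted p under 0.05). It called 6 and 19 without E15.5, 4 and 9 without P56 replicate 1 and 4 and 7 without P56 replicate 2. Without P14 it called 878 and 1176.

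**Figure D2:**
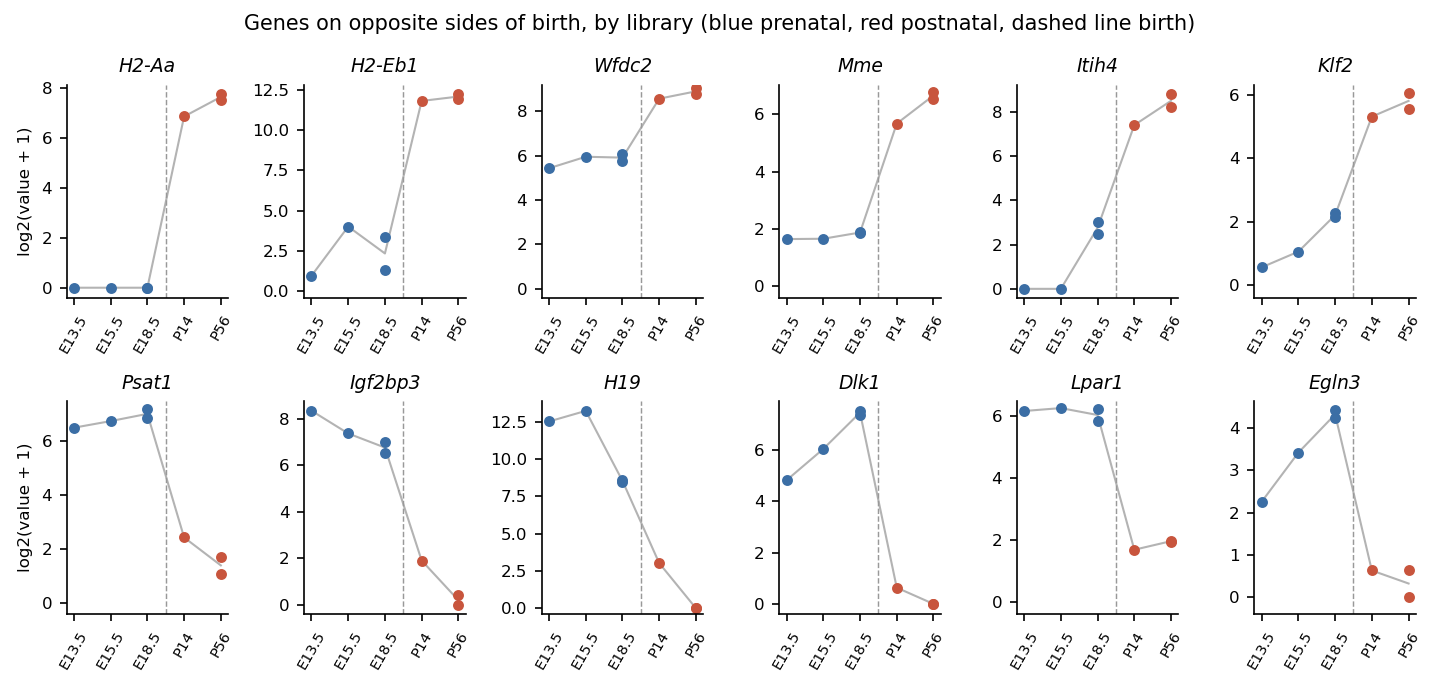
Value of 12 genes in each of 7 libraries as log2(value + 1) (vertical axes, scaled per gene) by stage (horizontal axes); blue points are prenatal and red points postnatal libraries, grey lines join stage means, and dashed lines mark birth. H2-Aa goes from 0 in 4 prenatal libraries to 116 or more units after birth, while Lpar1 goes from 56.2 or more to 2.91 or fewer.

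The MHC class II system was nearly silent before birth and abundant in every postnatal library. The class II molecule is a pair of chains, and the lists hold its chain genes, the invariant chain Cd74 that escorts them, the H2-DM chaperones that load peptides and Ciita, the transactivator that switches the set on. Of 9 members tested, 8 lay above every prenatal library and 8 rose by limma (3.63% of all genes tested rose; median log2 difference 4.68 against 0.08 over all genes tested). Summed over the list, the prenatal libraries held 7.798 to 28.7 units and the postnatal ones 4401 to 6070.1. Because a gene read only after birth can pass the filter on low values through that period alone, these counts describe the list. The same holds for the counts of every other list here, and for genes read only before birth.

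H2-Aa, the alpha chain of I-A (chromosome 17, 34282744 to 34287823 on GRCm38/mm10, GENCODE vM21, as for all positions here), had 0 reads in all 4 prenatal libraries and 116, 185 and 216 units after birth. Its postnatal mean of 172 ± 51.3 (SD, n = 3) was at least 676-fold higher than 3 reads over the prenatal libraries would give (log2 difference 7.39, SE 0.31, adjusted p = 4.6e-05). H2-Ab1, the beta chain, had 1 read before birth, at E15.5, and 128, 154 and 224 units after it, which is 1880.4 times as much (95% interval 338 to 74273, for counting error only). H2-Eb1, the beta chain of I-E, had the highest values of the list, with 0.945, 15.1, 9.24 and 1.51 before birth against 3544, 3773 and 4857 after it (log2 difference 9.56, SE 0.72, adjusted p = 0.000962). Cd74 went from 0.473, 2.87, 6.93 and 4.898 before birth to 535, 705 and 646 after it (log2 difference 7.27, SE 0.54, adjusted p = 0.000962). In each of these 4 genes the lowest postnatal library stood far above the highest prenatal one.

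Ciita (chromosome 16, 10480059 to 10528418), at 0, 1.08, 0 and 0.377 before birth, stood at 27.8, 26.2 and 46.6 after it (log2 difference 4.68, adjusted p = 0.00165). The chaperone genes rose as well, H2-DMb1 from 0.585 ± 0.647 (SD, n = 4) to 23.04 ± 5.15 (n = 3), H2-DMb2 from 0.252 ± 0.363 to 9.88 ± 1.58 and H2-DMa from 2.48 ± 2.66 to 32.1 ± 11.1, with adjusted p between 0.00392 and 0.031. The 9th gene, H2-Eb2, overlapped (5.67, 3.95, 4.62 and 5.65 before birth, then 4.13, 7.399 and 5.83 after it). With P56 replicate 2 left out 5 of the 8 calls remained, H2-Aa, H2-Ab1, H2-Eb1, Cd74 and Ciita (adjusted p up to 0.0246). H2-DMb2 was also lost without P56 replicate 1 (adjusted p = 0.0692 there) and H2-DMa without P14 and without either P56 library (adjusted p up to 0.162). Near-identical MHC genes may split or share tags, which leaves the value of any single H2 gene uncertain. The immune marker sum given above was also highest at P14, where Csf1r had 81 reads and Ptprc 4. At P56 Csf1r had 0 and 7 reads and Ptprc 0 and 1, while the class II sum was highest in a P56 library. Tyrobp, a signalling adaptor of myeloid cells, had 14, 8, 0 and 1 reads before birth and 11, 8 and 7 after it, and Itgam and Fcer1g had at most 2 in any library. The part of immune cells in the class II rise was not tested.

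The stretches upstream of 4 of these genes are shown because the genes moved together and lie within 1 region of chromosome 17. Each is the 250 bases before the RefSeq start on GRCm38.p6, 5′ to 3′ on the gene's strand, with the CCAAT pentamer in capitals (ATTGG where it lies on the other strand).
H2-Aa (chr17:34287824-34288073, minus strand): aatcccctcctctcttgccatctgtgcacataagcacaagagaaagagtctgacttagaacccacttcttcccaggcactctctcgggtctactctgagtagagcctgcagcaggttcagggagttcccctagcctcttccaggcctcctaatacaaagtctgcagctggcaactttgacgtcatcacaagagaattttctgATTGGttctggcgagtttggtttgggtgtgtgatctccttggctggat
H2-Eb1 (chr17:34305617-34305866, plus strand): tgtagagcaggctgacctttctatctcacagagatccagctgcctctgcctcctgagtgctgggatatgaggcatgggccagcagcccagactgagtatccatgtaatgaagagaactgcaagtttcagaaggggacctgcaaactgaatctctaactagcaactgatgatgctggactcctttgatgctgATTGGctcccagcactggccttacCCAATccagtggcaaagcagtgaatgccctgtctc
H2-DMb1 (chr17:34152941-34153190, plus strand): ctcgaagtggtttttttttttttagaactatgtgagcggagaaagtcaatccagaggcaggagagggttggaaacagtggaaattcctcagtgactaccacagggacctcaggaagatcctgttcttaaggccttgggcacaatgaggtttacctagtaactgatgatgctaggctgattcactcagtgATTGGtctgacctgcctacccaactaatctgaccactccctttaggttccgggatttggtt
H2-DMb2 (chr17:34144999-34145248, plus strand): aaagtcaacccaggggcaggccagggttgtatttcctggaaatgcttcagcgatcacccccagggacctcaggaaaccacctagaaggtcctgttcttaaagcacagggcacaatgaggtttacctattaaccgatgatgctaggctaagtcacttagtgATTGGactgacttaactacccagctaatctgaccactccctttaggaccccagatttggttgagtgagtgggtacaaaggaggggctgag

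The pentamer begins 48 bases before the start in H2-Aa, 59 and 35 in H2-Eb1, 61 in H2-DMb1 and 90 in H2-DMb2. Counted by gene over any entry, it was found in 5 of the 5 risen class II genes that have an entry in the RefSeq table. Counted by promoter sequence, it was found in 33.8% of 32536 of the same length. H2-Eb2, which did not pass the test, holds it too, 100 bases before its start. The motif was chosen after the sequences and values had been seen, and a match describes letters only.

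The rest of the antigen-presentation set moved less. For MHC class I and antigen processing 3 list genes had too few reads, and the median log2 difference was 1.60. Of 11 genes tested 7 lay above every prenatal library and 1 rose by limma, against 16.0% and 3.63% of all genes tested. That was B2m, the light chain of class I, with 1.18, 3.23, 4.62 and 3.77 before birth and 12.4, 19.1 and 19.4 after it (log2 difference 2.15, SE 0.41, adjusted p = 0.026; lost without P14, E15.5 or either P56 library, adjusted p up to 0.156). Psmb8, an immunoproteasome subunit gene, was at 1.65, 52.4, 87.8 and 162 before birth and at 268, 415 and 449 after it, and its difference did not pass the test (log2 difference 3.29, adjusted p = 0.168). H2-K1, a class I heavy chain, stood at 23.3 ± 24.3 (SD, n = 4) and 111 ± 28.9 (n = 3, adjusted p = 0.104), and the peptide transporter gene Tap2 at 17.7 ± 13.9 and 84.3 ± 27.4 (adjusted p = 0.167). For the interferon response list limma called 0 of 12 genes (7 higher at an unadjusted p under 0.05, 0 by edgeR, 1 higher by DESeq2). Of the 12, 7 lay above every prenatal library, against 16.0% of all genes tested. Ifi27, an interferon-induced gene, was at 0, 0.718, 8.09 and 10.9 before birth and at 51.2, 42.1 and 29.8 after it (adjusted p = 0.0607).

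Genes of several secreted defence proteins were higher after birth. Of 8 tested, 7 lay above the prenatal libraries and 5 rose, against 16.0% and 3.63% of all genes tested. The median log2 difference was 4.42, and 5 of the 13 listed had too few reads to test. Wfdc2, a whey acidic protein family gene (chromosome 2, 164562413 to 164568510), was flat over the fetal stages, at 42.1, 60.6, 52.7 and 65.9 before birth, and stood at 377, 433 and 518 after it (log2 difference 2.98, SE 0.24, adjusted p = 0.00134; adjusted p at most 0.0205 with any 1 library left out). The change crossed 69.5% of its range. Lyz2, a lysozyme that attacks bacterial walls, was already present at E18.5, with 0, 0.718, 68.9 and 70.5 before birth and 1659, 2633 and 3612 after it (log2 difference 8.03, SE 1.57, adjusted p = 0.031). Lcn2, which binds bacterial iron carriers, rose 20.2-fold from 3.31 ± 3.74 (SD, n = 4) to 67.01 ± 21.3 (n = 3, adjusted p = 0.0138), the protease inhibitor gene Slpi 20.03-fold (adjusted p = 0.0169) and the chitinase gene Chia1 16.6-fold (adjusted p = 0.0366). Lyz1, which can share reads with Lyz2, was at 0, 3.23, 397 and 384 before birth and 3777, 6404 and 6806 after it and did not pass (adjusted p = 0.0779). Without P56 replicate 1 or P56 replicate 2 only 1 call of the 5 remained in each case, and 3 remained without P14 or without E15.5.

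Of 8 tested complement and acute phase genes 6 lay above the prenatal libraries and 2 rose, against 16.0% and 3.63% of all genes tested. Itih4, an acute phase protein gene, had 0 reads at E13.5 and E15.5, 4.62 and 7.16 units at E18.5 and 168, 293 and 444 units after birth (log2 difference 6.75, SE 0.82, adjusted p = 0.00775). Hp, which encodes haptoglobin, went from 2.36, 14.7, 36.2 and 51.2 before birth to 162, 301 and 406 after it (adjusted p = 0.0451). Hc, complement component C5, did not pass: it was at 2.599, 16.5, 1758 and 1999.9 before birth and 9021, 7564 and 8043 after it, so that most of its log2 range was crossed before E18.5 (adjusted p = 0.144). Without either P56 library no call of this list remained.

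Outside the lists the widest gaps upwards included ectoenzymes that cut peptides or nucleotides at the cell surface. Mme, which encodes neprilysin (chromosome 3, 63241537 to 63386030), was level over the fetal stages at 2.13, 2.15, 2.69 and 2.64 before birth and stood at 50.1, 109 and 91.3 after it (log2 difference 4.57, SE 0.33, adjusted p = 0.000921; adjusted p at most 0.0152 with any 1 library left out). Enpep, glutamyl aminopeptidase (chromosome 3, 129269175 to 129332720), went from 4.02, 13.99, 10.01 and 23.7 before birth to 277, 412 and 411 after it (log2 difference 4.92, SE 0.50, adjusted p = 0.00412; adjusted p = 0.0523 without P56 replicate 2). Anpep, aminopeptidase N, went from 12.3, 20.1, 70.8 and 103 before birth to 525, 841 and 852 after it (log2 difference 4.25, adjusted p = 0.0166). Entpd1, which encodes CD39 and breaks down extracellular ATP, went from 0, 1.08, 23.5 and 13.9 before birth to 236, 417 and 373 after it (log2 difference 5.99, adjusted p = 0.0221). Dpp4, another surface peptidase gene, also lay above in all 3 postnatal libraries (77.5 ± 29.4 and 153 ± 3.42) and did not pass (adjusted p = 0.103). Mme, Anpep and Dpp4 were named after their values had been seen. Anpep and Entpd1 lost their calls without E15.5 or either P56 library, and Entpd1 without P14 (adjusted p up to 0.128).

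Gdnf, a growth factor of neurons and kidney, stood at 0.709, 2.51, 3.46 and 2.64 before birth and at 84.2, 236 and 295 after it (log2 difference 5.85, SE 0.51, adjusted p = 0.00165). Cox6a2, the muscle-type form of a respiratory chain subunit, had 0 reads at E13.5 and E15.5, 8.86 and 2.26 units at E18.5 and 206, 906 and 1254 units after birth (log2 difference 8.02, SE 0.93, adjusted p = 0.00604). In both the P56 libraries stood above P14. Acoxl, an acyl-CoA oxidase family gene, stood at 0.709, 0, 36.96 and 30.1 before birth and at 482, 459.6 and 576 after it (adjusted p = 0.0353), with P14 between the P56 libraries. The neighbouring ribonuclease genes Rnase4 and Ang rose 19.8-fold to 496 ± 32.7 (n = 3, adjusted p = 0.0392) and 25.8-fold to 37.8 ± 12.7 (adjusted p = 0.00594); Ang was chosen after its values were seen. Lrrc8c, a subunit of volume-regulated anion channels, stood at 59.5, 41.98, 24.6 and 22.2 before birth, lowest at E18.5, and at 202, 388 and 305 after it (adjusted p = 0.00829). Cd151, a tetraspanin gene, was also lowest before birth at E18.5, with 116, 72.5, 61.2 and 51.6 before birth and then 293, 201 and 164 after it (log2 difference 1.55, adjusted p = 0.0407, up to 0.169 when any library but E13.5 was left out). Among 16 immediate early and related factors tested 1 rose, a share near the 3.63% over all genes tested. It was Klf2, a zinc finger factor known from endothelium, with 0.473, 1.08, 3.85 and 3.39 before birth and 38.8, 46.4 and 65.4 after it (adjusted p = 0.00604). Klf4 stood at 151 ± 97.2 and 599 ± 183 (adjusted p = 0.061). Without P56 replicate 1 or 2 the calls of Cox6a2, Acoxl, Rnase4, Ang, Lrrc8c and Klf2 ended, those of Acoxl and Rnase4 also without P14 or E15.5 and that of Acoxl without E13.5 (adjusted p up to 0.171).

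Surfactant genes lay on the postnatal side as well, but most of their log2 range lay before birth. Of 13 surfactant and lamellar body genes tested 11 lay above every prenatal library, while 2 rose by limma, Sftpa1 and Etv5 (median log2 difference 3.50). Over all genes tested 16.0% lay above and 3.63% rose. Sftpa1, a surfactant collectin, went from 8.98, 65.7, 471 and 406 before birth to 3634, 4871 and 6563 after it (log2 difference 5.52, SE 1.23, adjusted p = 0.045). Sftpc, which encodes the small hydrophobic surfactant protein C, was at 29.5, 1259.8, 3953 and 3365 before birth and at 15516, 19987 and 21448 after it (adjusted p = 0.133). Sftpb, which encodes surfactant protein B, stood at 41.6, 601, 4067 and 4162 before birth and 11751, 16118 and 17867 after it (adjusted p = 0.137). The gap between the periods was 20.9% of the range of Sftpc and 17.2% of that of Sftpb, against 88.5% for H2-Aa. Etv5, a factor downstream of FGF signalling, took another course, with 143, 139, 75.8 and 64.05 before birth and 237, 320.4 and 277 after it (log2 difference 1.46, SE 0.34, adjusted p = 0.0493), lowest at E18.5. With E18.5 as the only prenatal stage 9 of the 13 rose and 0 fell, among them Sftpc (log2 difference 2.37, adjusted p = 0.000172) and Sftpb (1.87, adjusted p = 0.000912). In the comparison of the periods both calls ended without P14, E15.5 or either P56 library, and that of Etv5 also without either E18.5 library or without robust variance estimates (adjusted p up to 0.212).

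Type 1 cell genes overlapped between the periods, with 1 exception among 19 tested. Over all genes tested 16.0% lay above every prenatal library and 7.63% below, so most genes overlapped. Limma called 0 of 19 tested (0 at an unadjusted p under 0.05 in either direction, 0 by edgeR and by DESeq2). The exception was Aqp5, a water channel, by a narrow gap (2.36, 15.4, 1931 and 2181 before birth, then 3139.5, 2545 and 3000.1 after it; adjusted p = 0.271). Ager, the receptor gene used to mark type 1 cells, stood at 5.67, 91.5, 694 and 868 before birth and 851, 230.5 and 212 after it. Cav1, the scaffold of caveolae, stood at 0.945, 20.8, 181 and 149 before birth and 77.9, 5.98 and 4.53 after it. Both were lower at E13.5 and at P56 than at E18.5. With E18.5 as the only prenatal stage 6 of the 19 fell and 0 rose, among them Igfbp6 (log2 difference -2.49, adjusted p = 0.000293), whose difference over all 4 prenatal libraries was 1.45. Of 16 fluid transport genes tested 3 lay above and 1 rose, shares near those over all genes tested (16.0% and 3.63%). It was Slc26a4, an anion exchanger gene, with 0 reads in the prenatal libraries and 4.402, 20.2 and 27.2 units after birth (at least 67.9-fold higher, adjusted p = 0.0117, up to 0.093 without either P56 library). The chloride channel gene Cftr lay above by a small margin (90.2 ± 17.1 and 117 ± 4.41, adjusted p = 0.365).

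**Figure D3:**
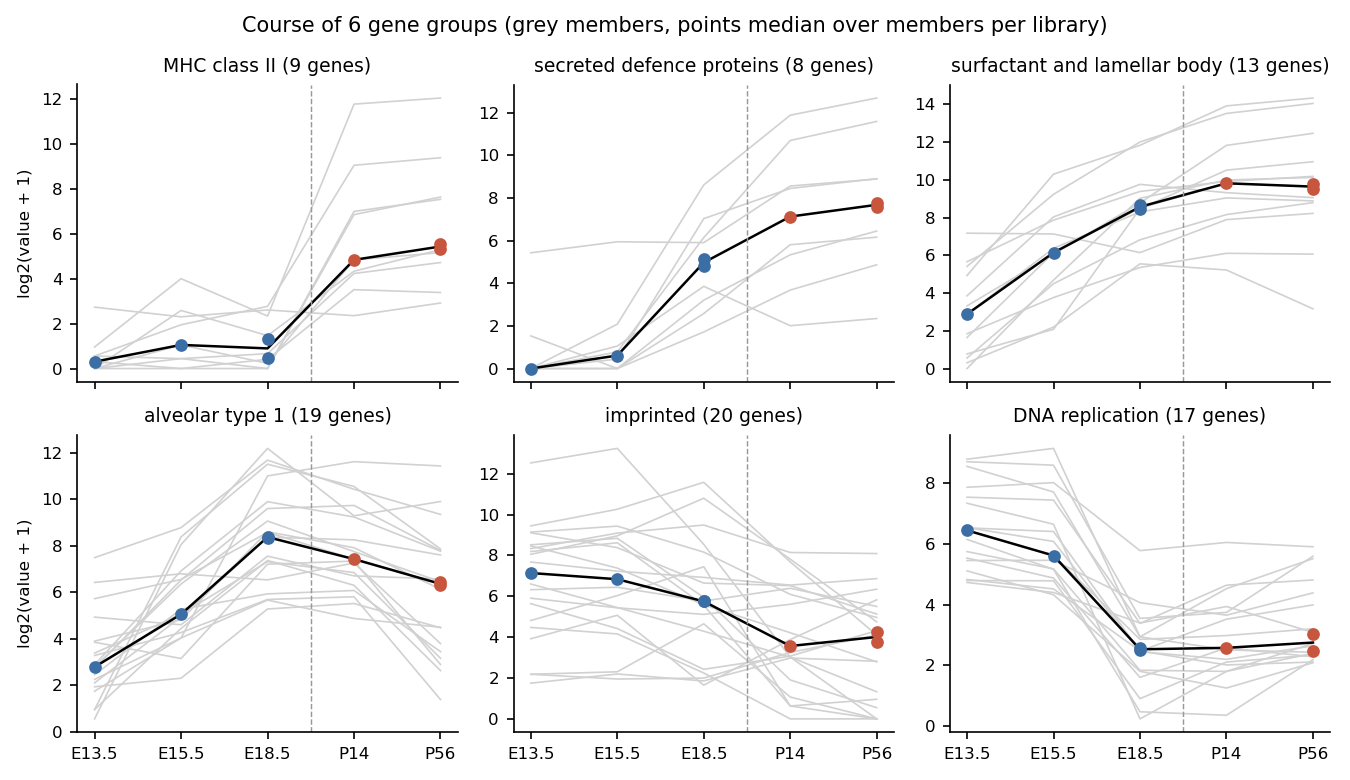
Course of 6 gene groups over 5 stages (horizontal axes) as log2(value + 1) (vertical axes); grey lines are single genes by stage mean, points the median over tested members in each library (blue prenatal, red postnatal), black lines join stage means of the medians and dashed lines mark birth. MHC class II medians go from 1.33 or less before birth to 4.85 or more after, surfactant medians have passed 8 by E18.5, type 1 medians peak at E18.5 and DNA replication medians drop before E18.5.

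Several enzymes that handle foreign compounds were higher after birth. Of 18 xenobiotic metabolism genes tested 12 lay above every prenatal library and 6 rose (median log2 difference 2.23). Over all genes tested 16.0% lay above and 3.63% rose. Aox3, an aldehyde oxidase gene, went from 0, 0.359, 4.62 and 3.01 before birth to 36.6, 90.2 and 131 after it (log2 difference 5.03, SE 0.70, adjusted p = 0.00961). Ephx1, microsomal epoxide hydrolase, went from 1.65, 6.82, 1.16 and 3.39 before birth to 28.3, 37.6 and 71.9 after it (log2 difference 3.54, SE 0.52, adjusted p = 0.0108). Cyp2b10, a cytochrome P450 gene, had 2 prenatal reads, both in E18.5 replicate 1, and 9.35, 23.05 and 30.4 units after birth (ratio 109, counting interval 30.1 to 899; adjusted p = 0.00613). Por, which passes electrons to the P450 enzymes, rose 3.38-fold (adjusted p = 0.0452), and the glutathione transferase genes Gstt1 and Gsta3 9.22-fold (adjusted p = 0.0225) and 10.9-fold (adjusted p = 0.0266). Without P56 replicate 1 or P56 replicate 2 none of the 6 kept its call (adjusted p up to 0.196), and 3 were called without P14 or without E15.5. The secretory club cells of the airway hold many of these enzymes, and their marker list changed in both directions. Of 8 tested, Scgb1a1, the main club cell secretory protein, and Hp rose and Cldn10 fell, against 3.63% and 1.28% of all genes tested. Scgb1a1 went from 0, 0.359, 15.02 and 14.7 before birth to 91.6, 344 and 273 after it (adjusted p = 0.0313, up to 0.162 without P14, E15.5 or either P56 library), and the list's sum from 296 to 1676 units before to 2958 to 5872 after birth. The part of club cell number in the xenobiotic list was not tested.

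For antioxidant enzymes limma called 0 of 17 (5 higher at an unadjusted p under 0.05, 0 by edgeR, 2 higher by DESeq2), with catalase, Cat, at 13.8 ± 9.95 (SD, n = 4) and 55.1 ± 5.604 (n = 3, adjusted p = 0.0673). Fatty acid and phospholipid synthesis had 4 rises among 17 tested, against 3.63% of all genes tested. They were Me1, malic enzyme, which supplies NADPH (66.2, 165, 202 and 167 before birth, then 607, 695 and 671 after it; adjusted p = 0.0189), the elongase Elovl1 (22.05-fold), the desaturase Fads1 (3.03-fold) and the acyl-CoA synthetase Acsl4 (5.05-fold), with adjusted p between 0.0253 and 0.0386. None of the 4 was called without E15.5 or either P56 library, and 1 without P14. Cholesterol synthesis had 0 calls by limma among 19 (2 higher at an unadjusted p under 0.05, 0 by edgeR, 2 higher by DESeq2).

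Of 14 circadian clock genes tested 4 lay above every prenatal library and 3 rose, against 16.0% and 3.63% of all genes tested. Dbp, a clock output factor, went from 0.709, 0.718, 3.08 and 3.39 before birth to 18.98, 45.2 and 46.6 after it (log2 difference 3.71, SE 0.51, adjusted p = 0.00914). Nr1d2, the repressor REV-ERB beta, went from 14.2, 6.82, 29.3 and 18.1 before birth to 66.03, 149 and 119 after it (adjusted p = 0.0226), and Bhlhe40, a repressor in the same circuit, from 9.69, 15.8, 30.03 and 37.7 before birth to 59.4, 147 and 169.7 after it (adjusted p = 0.0438). The labels used here give no hour of collection, so time of day and age cannot be told apart for these genes. Fkbp5, a chaperone of steroid receptors that glucocorticoids induce, went the other way, from 60.5, 38.8, 63.5 and 83.3 before birth to 10.2, 12.8 and 10.7 after it (log2 difference -2.31, SE 0.31, adjusted p = 0.00862). It was the only call among 12 glucocorticoid response genes, against 1.28% of all genes tested that fell. The list as a whole did not fall: its median log2 difference was 1.15. Of the 12, 4 lay above every prenatal library and 1 below, against 16.0% and 7.63% of all genes tested. Without P56 replicate 1 or P56 replicate 2 none of these 4 calls remained, and that of Bhlhe40 also ended without E15.5 or E18.5 replicate 1 (adjusted p up to 0.206).

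Many imprinted transcripts were lower after birth. Of 20 imprinted genes tested 12 lay below every prenatal library and 9 fell, with 0 rises (median log2 difference -3.18). Over all genes tested 7.63% lay below and 1.28% fell. Peg10 and Sgce, 2 of the 20, lay above. Imprinted genes are read from only the maternal or the paternal copy, and many of them set fetal growth. H19, a maternal non-coding RNA, and Igf2, the fetal growth factor encoded beside it, were lowest after birth together. H19 stood at 5921, 9692, 397 and 349.6 before birth, 7.15 at P14 and 0 in both P56 libraries (log2 difference -9.71, SE 1.35, adjusted p = 0.00961). Igf2 stood at 292, 393, 36.96 and 57.6 before birth and 0.5502, 0.285 and 1.94 after it (log2 difference -6.13, SE 0.84, adjusted p = 0.00914). Mest, a paternal gene of the mesoderm, went from 367, 457, 69.3 and 53.1 before birth to 2.75, 1.14 and 0 after it (log2 difference -6.31, adjusted p = 0.00873). Cdkn1c, a cyclin-dependent kinase inhibitor, went from 565, 692, 314 and 261 before birth to 67.4, 30.7 and 29.8 after it (adjusted p = 0.00817), the only call among 6 such inhibitors tested.

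Dlk1 and Rian, from 1 imprinted domain of chromosome 12, took another course, since both were highest at E18.5. Dlk1, a Notch ligand-like growth regulator, stood at 27.2, 64.6, 183 and 165 before birth and had 2 reads at P14 and 0 in both P56 libraries, so that its prenatal mean was 599 times the postnatal one (interval for counting error 166 to 4949; log2 difference -6.23, adjusted p = 0.00419). The non-coding RNA Rian stood at 698, 1227, 2851 and 3295 before birth and at 205, 23.6 and 11.01 after it (log2 difference -5.42, adjusted p = 0.0221). Its neighbour Meg3 had the same order of stages but a smaller gap (265, 497, 1704 and 1871 before birth, then 225, 25.9 and 25.9 after it; adjusted p = 0.0564). Zim1, with 0 postnatal reads (at least 38.8-fold lower), Peg3 (12.9-fold lower) and the growth factor receptor adaptor Grb10 (15.4-fold lower) fell with adjusted p between 0.031 and 0.0431. Peg10 stood at 3.31 ± 1.55 and 13.8 ± 5.13 (adjusted p = 0.0505). Of the 9 falls, 1 remained without P56 replicate 1, 0 without P56 replicate 2, 7 without P14 and 5 without E15.5.

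The let-7 target and fetal RNA-binding list had 4 falls and 0 rises among 11 tested, and 6 of the 11 lay below. Over all genes tested 1.28% fell and 7.63% lay below. Igf2bp3, an RNA-binding protein of fetal tissues (chromosome 6, 49085223 to 49214957), was at 326, 165, 91.2 and 127 before birth and at 2.75, 0 and 0.324 after it (log2 difference -6.54, SE 0.57, adjusted p = 0.00165; adjusted p at most 0.0223 with any 1 library left out). Igf2bp1 and Igf2bp2 fell too, and were 38.4-fold (adjusted p = 0.0126) and 4.84-fold lower (adjusted p = 0.0349). Hic2, a transcriptional repressor, stood at 74.2, 40.2, 66.99 and 51.6 before birth and at 4.95, 6.54 and 5.51 after it (log2 difference -3.12, SE 0.30, adjusted p = 0.00292; at most 0.0355 with 1 library left out). Hmga2, an architectural chromatin protein, was already low at E18.5 (66.9, 13.3, 3.85 and 2.26 before birth) and had 1 postnatal read, at P14 (adjusted p = 0.088). Igf2bp3 and Hic2 were called in every fit that left out 1 library, while Igf2bp1 and Igf2bp2 were not called without either P56 library, nor Igf2bp2 without E15.5 or E18.5 replicate 2 (adjusted p up to 0.175).

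Other genes with wide gaps downwards encode surface receptors, junction proteins and a serine synthesis enzyme. Lpar1, a receptor for lysophosphatidic acid (chromosome 4, 58435255 to 58553898), was level within each period, with 70.2, 74.99, 56.2 and 73.1 before birth and 2.201, 2.85 and 2.91 after it (log2 difference -4.25, SE 0.25, adjusted p = 0.000383), so that 84.7% of its range was crossed between the periods. Ror2, a receptor for Wnt5a (chromosome 13, 53109312 to 53286124), stood at 77.7, 62.4, 26.9 and 53.5 before birth and had 1 postnatal read, at P14 (prenatal mean 601 times the postnatal one, counting interval 108 to 23758; adjusted p = 0.000921). Psat1, phosphoserine aminotransferase (chromosome 19, 15904678 to 15947337), was at 88.6, 105, 112 and 143 before birth and at 4.402, 1.14 and 2.27 after it (log2 difference -5.06, SE 0.36, adjusted p = 0.000921). Shmt2, which passes on carbon from serine in mitochondria, stood at 7.66 ± 2.49 (SD, n = 4) and 1.28 ± 0.441 (n = 3, adjusted p = 0.0275). Cldn10, a tight junction gene, went from 282, 519.9, 453 and 634 before birth to 20.9, 17.6 and 8.097 after it (log2 difference -4.87, SE 0.39, adjusted p = 0.00124). Cldn4, also of tight junctions, went from 50.1, 40.2, 117 and 164 before birth to 5.23, 2.85 and 1.94 after it (adjusted p = 0.00797). It was the only call among 12 epithelial identity genes, against 1.28% of all genes tested that fell. The calls of Lpar1, Ror2, Psat1 and Cldn10 held with any 1 library left out (adjusted p at most 0.0156), that of Cldn4 ended without P56 replicate 1 or 2, and that of Shmt2 also without P14 or E15.5 (adjusted p up to 0.141). Frat2, a Wnt pathway regulator, stood at 548, 874, 1792 and 2108 before birth and at 426, 379 and 355 after it (adjusted p = 0.0924). Lpar1, Ror2 and Shmt2 were named after their values had been seen.

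Fstl1, a secreted glycoprotein, went from 1679, 5801, 5567 and 5538 before birth to 293, 23.6 and 35.95 after it (log2 difference -6.01, adjusted p = 0.0099). The fibrillin gene Fbn2 fell from 115 ± 83.03 to 3.15 ± 4.204 (adjusted p = 0.0166), the surface sialomucin gene Podxl from 104 ± 20.1 to 7.298 ± 8.22 (adjusted p = 0.00914) and the death receptor gene Tnfrsf21 from 195 ± 98.9 to 10.6 ± 6.82 (adjusted p = 0.0108). The collagen and elastic fibre list, as drawn up here, holds Fstl1 but not Fbn2. Of its 17 genes tested Fstl1 was the only call, against 1.28% of all genes tested that fell. Col18a1, the collagen that gives endostatin, lay below at 966 ± 980.1 and 33.1 ± 11.7 (adjusted p = 0.0695). Of 12 distal tip progenitor factors 1 fell, Foxp2, against 1.28% of all genes tested. Foxp2 went from 158, 133, 55.4 and 64.8 before birth to 20.4, 15.9 and 13.9 after it (adjusted p = 0.0185). Shh, the hedgehog ligand of the airway tips, was at 564 at P14 and at 172 and 125 at P56, and Sox9 stood at 112, 137, 40.8 and 59.9 before birth and 53.6, 1.71 and 0.972 after it (adjusted p = 0.0744 and 0.101). Of the limma fits that left out 1 library, only the one without P14 called Shh and Sox9 lower (adjusted p = 0.0092 and 0.00667). The calls of Fstl1, Fbn2, Podxl, Tnfrsf21 and Foxp2 were lost without P56 replicate 1 or P56 replicate 2, and those of Fbn2 and Foxp2 without E15.5 (adjusted p up to 0.12).

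Part of the glycolysis and hypoxia response list was lower after birth. Of 20 genes tested 7 lay below and 5 fell, while 2, Hk1 and P4ha1, lay above (median log2 difference -0.57). Over all genes tested 7.63% lay below, 1.28% fell and 16.0% lay above. Pgam1, phosphoglycerate mutase, went from 1760.3, 1057, 733 and 695 before birth to 234, 226 and 223 after it (log2 difference -2.11, SE 0.34, adjusted p = 0.0154), level over the 3 postnatal libraries. Eno1, enolase, went from 52.9, 26.2, 23.1 and 22.98 before birth to 6.603, 3.41 and 3.56 after it (adjusted p = 0.0127). Pgk1, phosphoglycerate kinase, went from 71.4, 67.5, 72.4 and 109 before birth to 27.5, 27.3 and 35.3 after it (adjusted p = 0.0283). Slc2a1, the glucose transporter GLUT1, stood at 318, 503, 564 and 622 before birth and at 98.8, 222 and 195 after it (log2 difference -1.58, adjusted p = 0.0455). Egln3, an oxygen-dependent prolyl hydroxylase whose gene hypoxia induces, had the same order of stages before birth, with 3.78, 9.69, 17.7 and 20.3 before birth and then 0.5502, 0.569 and 0 after it (log2 difference -3.15, adjusted p = 0.0218). Gapdh, looked at after its values were seen, was 3.22-fold lower (adjusted p = 0.0326, up to 0.147 without P14, E15.5 or either P56 library), and Tpi1 and Pkm lay below without passing (adjusted p = 0.133 and 0.142). Processed pseudogenes can share reads with Eno1, Pgam1, Pgk1 and Gapdh. Without P56 replicate 1 or 2 none of the 5 calls remained, and 1 remained without P14 or without E15.5 (adjusted p up to 0.168). For glycogen enzymes limma called 0 of 10 (with no adjustment 1 higher and 3 lower at p under 0.05; edgeR 0, DESeq2 2 lower).

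Upstream stretches of Pgam1 and Pgk1 are shown, as glycolytic enzymes that fell, with the pentamer ACGTG, the core that hypoxia-inducible factors are known to bind, in capitals (CACGT on the other strand), as 250 bases before the RefSeq start on GRCm38.p6.
Pgam1 (chr19:41911621-41911870, plus strand): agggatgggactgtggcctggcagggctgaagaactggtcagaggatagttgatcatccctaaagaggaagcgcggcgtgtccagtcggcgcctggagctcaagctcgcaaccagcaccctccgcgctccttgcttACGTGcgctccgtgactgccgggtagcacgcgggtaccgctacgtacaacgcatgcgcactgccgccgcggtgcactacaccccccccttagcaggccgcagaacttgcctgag
Pgk1 (chrX:106186850-106187099, plus strand): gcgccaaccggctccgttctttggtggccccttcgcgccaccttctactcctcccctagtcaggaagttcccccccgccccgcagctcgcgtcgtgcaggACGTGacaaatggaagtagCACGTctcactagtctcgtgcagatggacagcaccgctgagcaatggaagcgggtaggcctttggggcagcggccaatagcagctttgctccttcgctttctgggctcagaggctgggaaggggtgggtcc

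The pentamer begins 114 bases before the start of Pgam1 and 150 and 131 before that of Pgk1. Counted by gene over any entry, 4 of the 5 fallen genes hold it (Egln3, Pgam1, Pgk1 and Slc2a1). So do 12 of the 19 tested members of the list with an entry. Counted by promoter sequence, it was found in 16.7% of 32536 of the same length. The share among the fallen genes, 80.0%, stood beside 63.2% for the tested list. It was chosen after the sequences had been seen.

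Genes of cell division were already low at E18.5, and none of those tested lay on one side of birth. Over all genes tested 7.63% lay below every prenatal library and 16.0% above. Limma called 0 of 17 DNA replication genes (0 at an unadjusted p under 0.05, 0 by edgeR, 3 lower by DESeq2) and 0 of 8 mitosis genes with enough reads, of 24 listed (0, 0, and 4 lower by DESeq2). Top2a, the topoisomerase of dividing cells, stood at 591, 454, 9.24 and 11.3 before birth and at 4.68, 9.96 and 10.7 after it. The proliferation marker Mki67 stood at 67.8, 98.3, 0.77 and 1.51 before birth and 2.201, 3.98 and 2.27 after it. In Mki67 both E18.5 libraries lay below the postnatal ones, and in Top2a one lay above them and one among them. For DNA methylation and silencing genes limma called 0 of 12, and edgeR and DESeq2 called 0 as well. With no adjustment 3 were lower at a limma p under 0.05. Of the 12, 3 lay below every prenatal library, against 7.63% of all genes tested.

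Markers of other cell types were followed over the same libraries. Of 8 mesenchymal markers tested 1 fell, against 1.28% of all genes tested. It was Acta2, smooth muscle actin, from 9.59 ± 2.53 to 2.62 ± 0.935 (adjusted p = 0.0431, up to 0.197 when any library but E13.5 was left out). Vim overlapped (2564, 1193, 110.1 and 135 before birth, then 138, 44.96 and 40.5 after it). The mesenchymal sum was 285 to 2626 units before and 97.8 to 278 after birth. Its part in the falls of Fstl1, Fbn2, Mest, Igf2 and H19, which mesenchyme also expresses, was not tested. Endothelial markers summed to 10.01 to 45.4 and 8.74 to 19.1 units, red blood cell genes to 0 to 48.98 and 15.9 to 42.1, and neither list had a call. Ciliated cell markers had 0 calls among 7 by limma (1 higher at an unadjusted p under 0.05, 0 by edgeR, 1 higher by DESeq2), with Tppp3 at 535 ± 347 and 1919 ± 365 (adjusted p = 0.0716). Mesothelial markers summed to 1394 to 8828 and 847 to 1115 units. Nearly all of that sum came from Msln, Upk1b and Krt19, and Krt19 is also on the epithelial identity list. Wt1, Upk3b, Lrrn4 and Gpm6a had at most 4, 1, 13 and 8 reads in any library, too few to be tested. Uchl1, a neuroendocrine marker, was far higher at E13.5 and E15.5 (1624 and 851) than in any later library (at most 45.97).

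**Figure D4:**
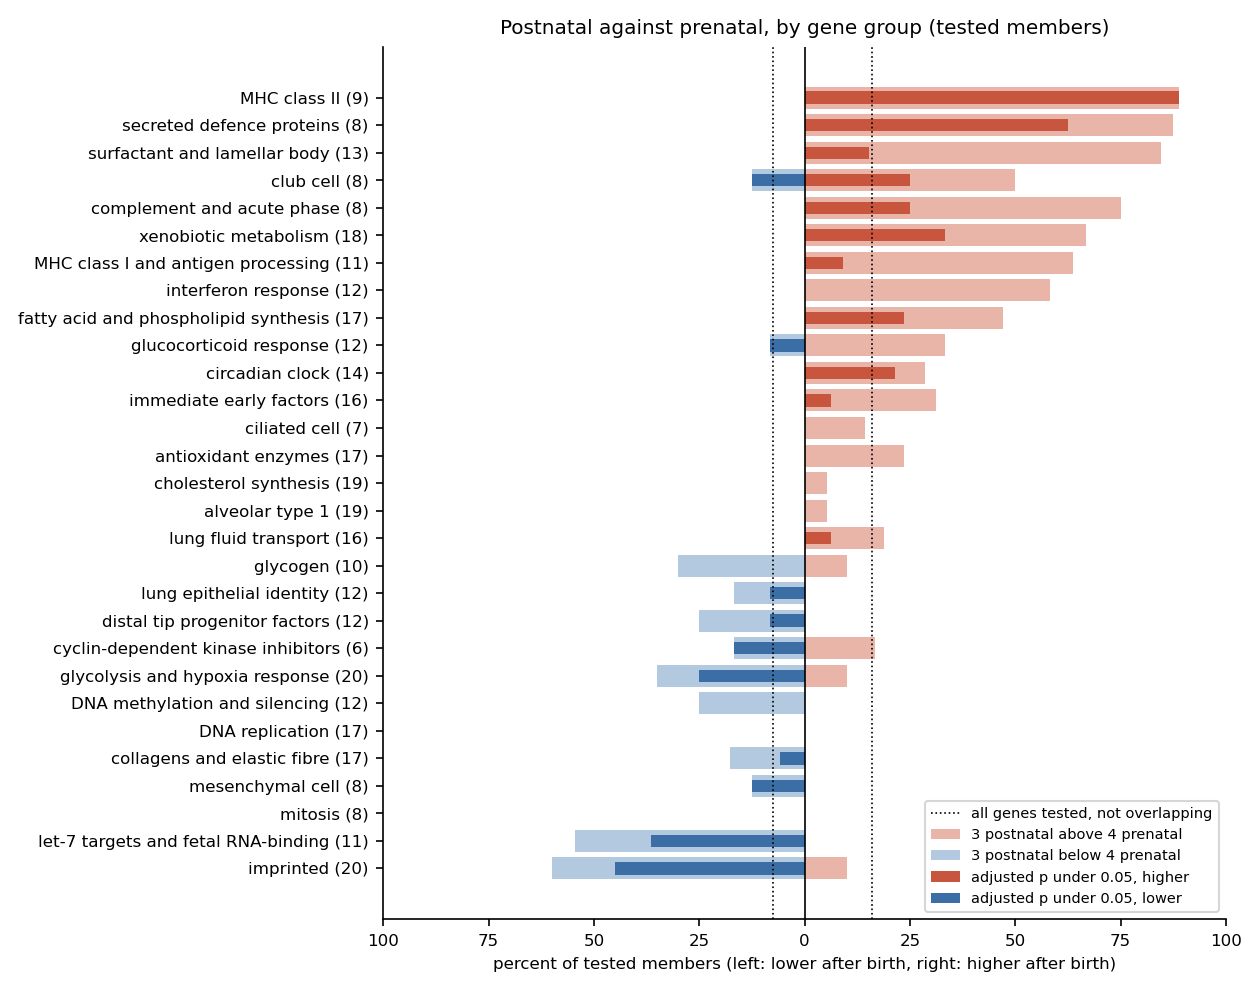
Share of tested members (horizontal axis, percent; left lower, right higher after birth) for 29 gene groups with at least 5 tested members, ordered by median log2 difference. Pale bars are genes whose periods did not overlap, dark bars genes with a limma adjusted p under 0.05, and dotted lines the shares of non-overlapping genes over all 10669 tested, 7.63% and 16.0%; MHC class II has 8 of 9 dark on the right and imprinted genes 9 of 20 on the left.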

How the data were processed

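RNA of sorted lung epithelial cells was read as 3' SAGE tags in 7 libraries. The deposited values are a signal: in each library all of them are whole multiples, within 0.01 reads, of 1 smallest value, so the authors' tag counts appear divided by 1 factor per library, and reads were recovered from these steps. Bowtie2 2.2.5, R 3.4.0 and mm10 are named, with no role, per the submitters' processing notes; the counting program, annotation and scaling are not given in the sources used here. Genes passing edgeR's filterByExpr by period were tested with limma 3.58.1 (trend, robust) on log2(value + 1), which understates the change of low genes, with 5 residual degrees of freedom, or 4 beside stage order; edgeR 4.0.16 and DESeq2 1.42.0 ran on the recovered reads (R 4.3.3). Adjusted p-values are Benjamini-Hochberg over all genes tested. The fits were tested on simulated data.

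Genes were named as the 12 widest gaps and 6 largest steps in each direction among non-overlapping genes, clone symbols aside, that averaged 100 units or more in 1 period and passed the test (of the period difference for gaps, of the step for steps), the 3 smallest p-values of each list, and others said to be chosen after their values were seen, among them the remaining examples from the lists. The members and the 35 lists were chosen with earlier results of these data known; 499 of 519 list genes are named in the files and 374 were tested. Positions are from GENCODE vM21 and upstream sequences from RefSeq (32851 entries for 27025 genes). Alternatives changed the scaling, pseudocount, filter, test, trend term, block, prenatal stages and each library.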

Additional observations from a re-analysis of the deposited data

Results flagged for a closer look

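Among the 4 prenatal libraries 1 stood apart from the other 3 for 9 of 125 genes looked at, by the gap to its nearest neighbour over the whole log2 range. For 4 replicates with a normal spread chance gives about 1 in 20. These libraries span several stages and many of the genes were chosen with their values known, so that rate does not carry over here. In 6 of the 9 the library apart was E13.5. There Fstl1 stood at 1679 against 5538 to 5801 in the others, Gstt1 at 0.709 against 6.46 to 7.32, Slc12a2 at 52.5 against 101 to 103, Eno1 at 52.9 against 22.98 to 26.2, Gapdh at 128 against 61.04 to 65.1 and Podxl at 134 against 91.9 to 95.9. E13.5 is the youngest stage, and library and stage cannot be told apart there. E18.5 replicate 2 stood at 109 for Pgk1 against 67.5 to 72.4. In H2-Ab1 (0.359 at E15.5, 1 read) and Cyp2b10 (0.77 in E18.5 replicate 1, 2 reads) the other 3 libraries had 0 reads.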

How the results depend on the processing

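Every count of calls moved with at least 1 setting, and the cause was not tested. Against 387 genes called higher and 137 lower, edgeR called 180 and 88, DESeq2 687 and 568, genes with a mean of at least 10 alone gave 246 and 89, 1 coefficient per stage gave 2243 and 1276, and E18.5 as the only prenatal stage gave 969 and 496. A pseudocount of 0.25 gave 241 higher. Leaving out 1 library gave 11 to 495 higher and 7 to 202 lower. Against 16 steps up and 37 down, log2 days after conception gave 0 and 0, edgeR 5 up, pseudocounts of 0.25 and 4 gave 10 and 27 up, and leaving out 1 library gave 0 to 878 and 0 to 1176. Of genes whose periods did not overlap, 1711 and 814, a gap of at least 1 on the log2 scale left 330 and 102, and leaving out 1 library gave 1853 to 2270 and 951 to 1383, since fewer libraries make non-overlap easier. TMM scaling took the median of all genes from 0.08 to -0.00142 and the share of non-overlapping genes that lay above from 67.8% to 59.8%. Of 78 called genes looked at by name, TMM scaling kept the call of 73, DESeq2 of 78, edgeR of 51, no filter on low values of 66 and a pseudocount of 0.25 of 59. Leaving out 1 library kept 14 (P56 replicate 2), 17 (P56 replicate 1), 44 (E15.5), 51 (P14) and 72 to 77 (the others). With E18.5 as the only prenatal stage Igfbp6 (-2.49) and Zfp36 (-1.20) had the opposite sign; the early fetal libraries, where both are low, are then absent.

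Replicate numbers are shared by E18.5 and P56 only, and the deviations of same-numbered libraries had a correlation of -0.037 over 6807 genes, so the numbers were not taken as pairs. With the replicate number as a block 232 genes were called higher and 83 lower, and 2 steps up and 1 down. Depth limits the low genes: 1 read is worth 0.236 to 0.385 units, and 10669 of 21121 listed genes had enough reads to be tested.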

Other observations

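Of the 37 downward steps beyond a linear trend 25 were in genes whose periods overlapped. The examples here were chosen after their values had been seen. Gipr, a receptor for the gut hormone GIP, stood at 3.78, 37.3, 329 and 296 before birth and at 7.703, 14.8 and 11.3 after it (step -8.64 on the log2 scale, adjusted p = 0.0201). Ndrg1, a stress-response gene, stood at 3.54, 32.3, 75.1 and 102 before birth and 7.43, 11.7 and 7.13 after it (step -5.95, adjusted p = 0.0363). Zfp36, which encodes an mRNA-destabilizing protein, stood at 220.2, 1273, 4186 and 5343 before birth and 1264, 2724 and 2553 after it (step -4.36, adjusted p = 0.0201). In all 3 the E18.5 libraries were the highest of the 7. With E18.5 as the only prenatal stage the log2 differences of Gipr, Ndrg1 and Zfp36 were -4.71, -3.21 and -1.20, smaller than their steps beside the fitted trend. Luc7l3, a splicing factor gene, ran the other way, with its lowest values at E18.5 (191, 105, 76.6 and 64.8 before birth, then 227, 142 and 130.2 after it; step 2.39, adjusted p = 0.0359).

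The genes of the oxygen-regulated transcription factors HIF-2 alpha and HIF-1 alpha differed in course, as seen after the values were known. Epas1, which encodes HIF-2 alpha, rose from 0.236, 0.359, 4.62 and 4.14 before birth to 37.1, 73.99 and 84.2 after it (log2 difference 4.56, SE 0.65, adjusted p = 0.0099; adjusted p up to 0.0786 without P56 replicate 1 or 2). Hif1a stood at 99.2 ± 23.8 (SD, n = 4) and 88.7 ± 7.85 (n = 3) and did not pass the test (log2 difference -0.13, adjusted p = 0.809).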
